A study of Mus musculus with 2 samples.

Results

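Solute carriers are the membrane proteins that move sugars, amino acids, ions, metals, vitamins and nucleosides into and out of cells and organelles. The members described here were the genes whose symbol follows the solute carrier pattern Slc, number, a, number and whose signal reached 8.0 on the log2 scale in at least 1 of 2 arrays, which held for 127 of 334 such genes with a probe set. The rule left out 1 gene of the pattern, which is not analysed here. Where a gene had several probe sets, the brightest by its mean over both arrays stood for it. The members were thus chosen by their own measured level, and levels and counts over them are given as a description.

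The study profiled TR1 cells, CD4 T cells that make IL-10 and restrain immune responses, from the small intestine of mice given the anti-CD3 antibody clone 2C11 into the peritoneum, 2 injections of 15 μg on alternate days. The wildtype sample had an intact IL-10 receptor alpha chain. The impaired sample came from mice with the CD4-DNIL-10R transgene, a dominant-negative IL-10 receptor under Cd4 control. Both groups had received anti-CD3, and tissue was taken 4 or 48 hours after the second injection; which time applies to which sample, the number and age of the mice, their strain and the gating are not stated in the labels. There was 1 array per genotype, so the spread between replicates is unknown and no difference was tested. Every value is log2 expression after RMA (robust multi-array average), and every difference is impaired minus wildtype, so that 1 stands for 2-fold.

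A cell that divides needs carriers for fuel and building blocks. Activated T cells are known for raising the glucose carriers GLUT1 and GLUT3, the amino acid exchanger made of LAT1 and the CD98 heavy chain, the glutamine carrier ASCT2 and the lactate carriers MCT1 and MCT4. The absorptive enterocyte uses another set, placed on the 2 faces of the cell: sodium-driven uptake from the gut lumen at the brush border, and release to the blood at the basolateral face. Both kinds were measured in the same arrays, and in a bulk sample fewer cells of a type and less RNA per cell cannot be told apart.

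The carriers known for enterocyte absorption were brighter in the impaired sample, while those known for T cell nutrition lay on both sides of 0. Over the 23 enterocyte members the median difference was 0.76 (1.69-fold), with 21 above 0 and 2 below. Over the 17 T cell members it was 0.02 (1.01-fold), with 9 above 0 and 8 below. All 6 members at least 2-fold brighter in the impaired sample were enterocyte carriers (Slc13a1, Slc7a8, Slc5a1, Slc26a3, Slc2a2 and Slc6a20a), and 0 of the 127 members were 2-fold dimmer. Over all 8132 genes that reached 8.0, 1.7% were 2-fold brighter, 0.197% were 2-fold dimmer and the median difference was -0.04, with 43.9% above 0. No test stands behind these counts, since there was 1 array per genotype.

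**Figure D1:**
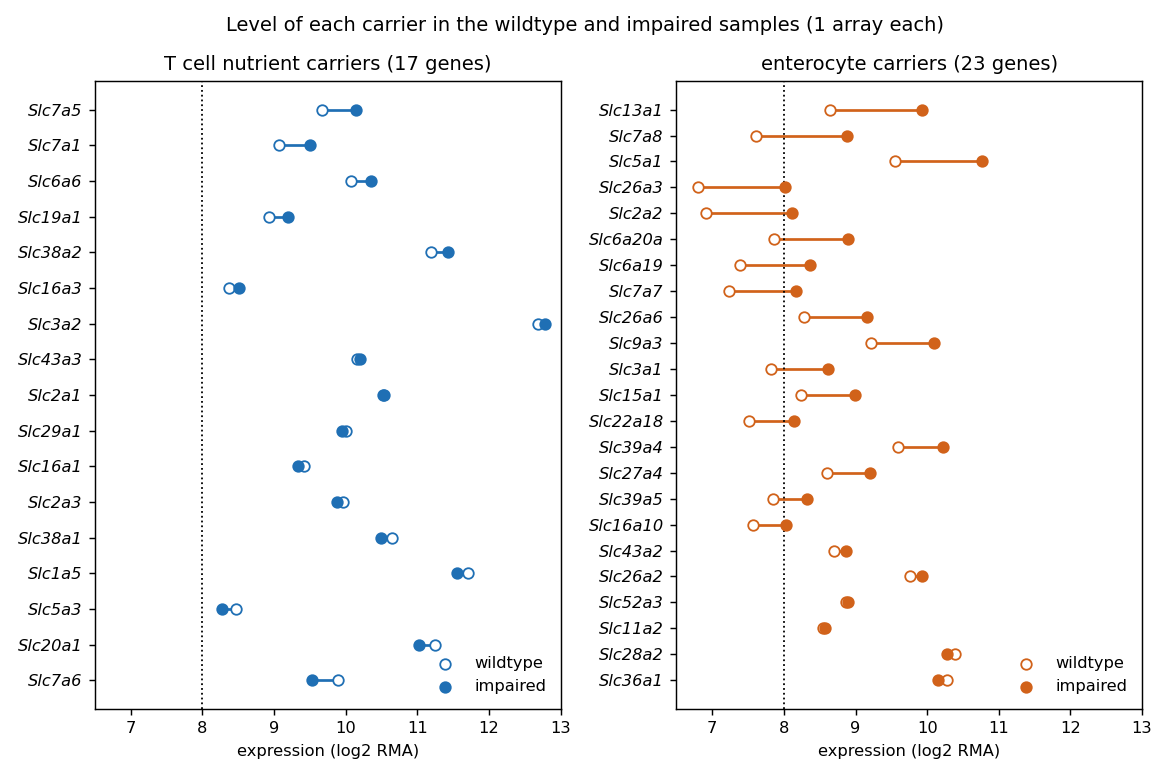
Log2 RMA expression of the 17 T cell nutrient carriers (left) and the 23 enterocyte carriers (right) that reached the floor of 8.0 (dotted line); open circles are the wildtype and filled circles the impaired array, 1 array each, with genes ordered by their difference. The filled circle lies to the right in 21 of the 23 enterocyte genes and in 9 of the 17 T cell genes.

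Part of the enterocyte difference follows from how members were chosen. Of the 23 enterocyte members, 10 reached 8.0 in the impaired array alone, and these had to be brighter there; the median over them was 0.96. The other 13 reached 8.0 in both arrays, and their median was 0.60, with 11 above 0 and 2 below and Slc13a1 and Slc5a1 past 2-fold. Among all 7513 genes at 8.0 in both arrays, 1.12% were 2-fold brighter and 42.2% lay above 0. All 17 T cell members reached the floor in both arrays. With the floor dropped altogether, 42 of the 44 listed enterocyte genes had a probe set and 38 of them lay above 0 with a median of 0.56, against 12 of 20 T cell genes and a median of 0.07. Over all 19937 genes without a floor, 51.5% lay above 0.

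**Figure D2:**
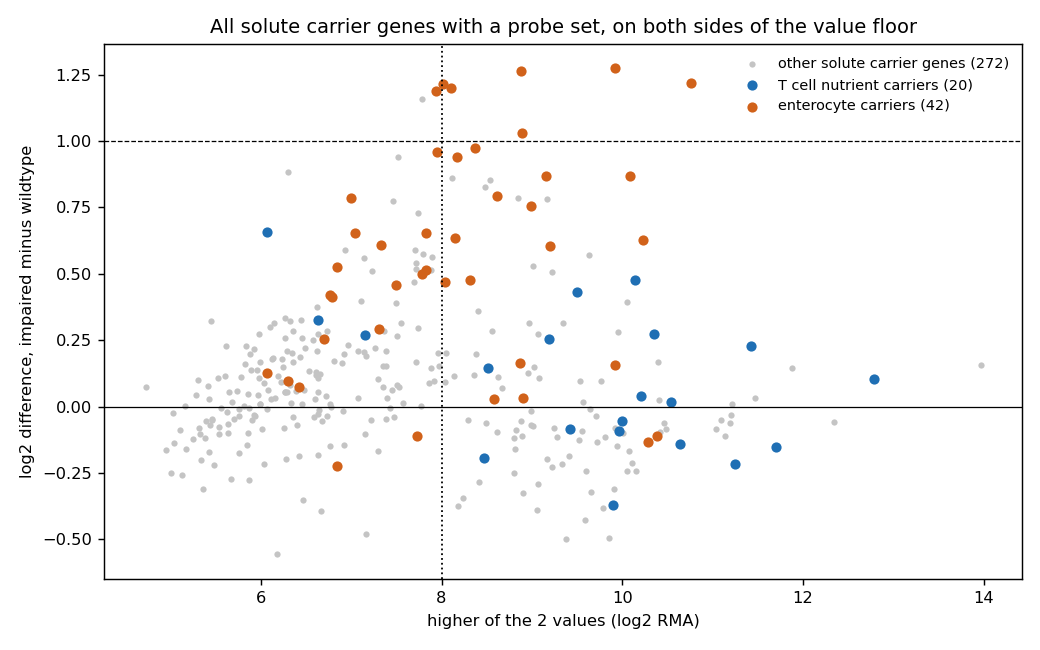
Each of the 334 solute carrier genes is 1 point, with the higher of its 2 log2 RMA values on the x axis and its log2 difference (impaired minus wildtype) on the y axis; the dotted line is the floor of 8.0 and the dashed line 2-fold. Enterocyte carriers lie mostly above 0 on both sides of the floor, with 38 of 42 above 0, and T cell carriers on both sides of 0.

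Sugar carriers showed the contrast between the lists. Slc5a1, which encodes the brush border sodium-glucose cotransporter SGLT1, was at 9.55 (wildtype) and 10.77 (impaired), a difference of 1.22 (2.33-fold). Slc2a2, which encodes GLUT2, the carrier through which glucose leaves the enterocyte, was at 6.91 and 8.11, a difference of 1.20. Slc2a5, the fructose carrier GLUT5, fell just short of membership, at 6.99 and 7.95 (difference 0.96). The GLUT genes of activated T cells lay near 0. Slc2a1, which encodes GLUT1, was at 10.52 (wildtype) and 10.54 (impaired), and Slc2a3, which encodes GLUT3, was at 9.97 and 9.87. Their differences were 0.02 and -0.09. The lactate and pyruvate carriers Slc16a1 (MCT1) and Slc16a3 (MCT4) differed by -0.08 and 0.15.

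Amino acid carriers that pair with a heavy chain covered a wide range. Slc3a2 encodes the CD98 heavy chain, which brings several light chains to the membrane, and it stood at 12.68 (wildtype) and 12.79 (impaired), a difference of 0.10. Its light chains went different ways. Slc7a5, the LAT1 light chain that imports leucine into activated T cells, was at 9.66 and 10.14 (difference 0.48), the highest of the 17 T cell members at the floor. Slc7a6, the light chain y+LAT2, was at 9.90 and 9.53 (difference -0.37), the lowest of them. Slc7a8, the LAT2 light chain of the basolateral face of enterocytes, was at 7.62 and 8.88, a difference of 1.26 (2.40-fold), and Slc7a7, the light chain y+LAT1 that exports lysine and arginine there, was at 7.23 and 8.17 (difference 0.94). The 4 light chains thus lay on both sides of the heavy chain, which T cells and enterocytes both make. The other heavy chain, Slc3a1 (rBAT, of the brush border cystine carrier), was at 7.82 and 8.62 (difference 0.79), and its partner Slc7a9 stayed below the floor at 7.18 and 7.83 (difference 0.66).

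Most other amino acid and peptide carriers of the enterocyte were brighter too. Slc6a20a, which carries proline, was at 7.86 (wildtype) and 8.89 (impaired) (difference 1.03). Slc6a19, the brush border carrier of neutral amino acids, was at 7.39 and 8.37 (difference 0.97), and Slc15a1, which encodes the peptide carrier PEPT1, at 8.23 and 8.99 (difference 0.76). Slc16a10, which carries aromatic amino acids, was at 7.56 and 8.03 (difference 0.47). Slc6a20a, Slc6a19 and Slc16a10 reached 8.0 in the impaired array alone, so they had to be brighter there. Slc15a1 reached it in both arrays. In contrast, Slc36a1, a proton-coupled amino acid carrier that also sits on lysosomes of many cells, was at 10.28 and 10.15, a difference of -0.13, the lowest of the 23 enterocyte members. Below the floor, the phosphate carrier Slc34a2 was lower still, at 6.84 and 6.62 (difference -0.22). Slc43a2, a carrier of branched-chain amino acids, differed by 0.16.

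The amino acid carriers of the T cell list that reached the floor lay within 1.5-fold in both directions. Slc1a5 (ASCT2), which imports glutamine, was at 11.70 (wildtype) and 11.55 (impaired) (difference -0.15). Slc38a1, another glutamine carrier, was at 10.64 and 10.50 (difference -0.14), although its dimmer second probe set, at 7.10 and 7.18, differed by 0.09. Slc38a2, which cells raise when amino acids run short, was at 11.19 and 11.42 (difference 0.23). Slc7a1, the arginine carrier CAT1, was at 9.07 and 9.50 (difference 0.43). Slc6a6, which carries taurine, differed by 0.27. Slc1a4 (difference 0.33) and Slc7a11, the cystine carrier xCT (0.66), stayed below the floor in both arrays.

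Ion, phosphate and sulfate carriers of the enterocyte held the largest single difference. Slc13a1, the sodium-sulfate cotransporter, was at 8.65 (wildtype) and 9.92 (impaired), a difference of 1.27 (2.42-fold), and it was at the floor in both arrays. Slc26a3, the chloride-bicarbonate exchanger, was at 6.80 and 8.02 (difference 1.215). Slc26a6, an anion exchanger, was at 8.28 and 9.15, and Slc9a3, the brush border sodium-proton exchanger NHE3, at 9.22 and 10.09, each with a difference of 0.87. Slc26a2, a sulfate carrier that many cells need for matrix and mucus, was at 9.77 and 9.92 (difference 0.16). On the T cell side, Slc20a1, a phosphate carrier, was at 11.24 and 11.03 (difference -0.215), and Slc5a3, which carries inositol, differed by -0.19.

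Metal, lipid, vitamin and nucleoside carriers of the enterocyte list were less uniform. Slc39a4, the zinc importer ZIP4, was at 9.60 (wildtype) and 10.22 (impaired) (difference 0.63), and Slc39a5, another zinc carrier of the gut, differed by 0.48 (7.84 and 8.32). Slc27a4, the fatty acid transport protein FATP4, differed by 0.61, and Slc22a18 by 0.63. Slc11a2, the iron importer DMT1, was at 8.55 and 8.58 and differed by 0.03, as did Slc52a3, a riboflavin carrier, at 8.87 and 8.90. Slc28a2, a concentrative nucleoside carrier, was at 10.39 and 10.27 (difference -0.11), and its related copy Slc28a2b at 8.99 and 8.92 (-0.07); these copies may share signal. In the T cell list, Slc29a1, the equilibrative nucleoside carrier, differed by -0.05, Slc43a3, a nucleobase carrier, by 0.04, and Slc19a1, the reduced folate carrier, by 0.26, although its second probe set differed by -0.01.

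Within the enterocyte list, genes that T cells or many other cells also use had a lower median, with exceptions in both directions. The 7 members marked in this way (Slc7a7, Slc7a8, Slc11a2, Slc26a2, Slc28a2, Slc36a1 and Slc43a2) had a median of 0.16, and the other 16 had a median of 0.83 with 16 of 16 above 0. Among the marked members, Slc7a7 and Slc7a8 reached 8.0 in the impaired array alone and had to be brighter there. Among the other 16, this held for Slc2a2, Slc3a1, Slc6a19, Slc6a20a, Slc16a10, Slc22a18, Slc26a3 and Slc39a5. The count of 16 of 16 and the distance between the 2 medians thus follow in part from the floor. Among all 8132 genes that reached 8.0, 43.9% lay above 0. Slc7a8 (1.26) and Slc7a7 (0.94) are marked and lay far above 0, and Slc52a3 (0.03) is not marked and lay near it. Of the 23 enterocyte members, 15 were brighter by more than Slc7a5, the highest T cell member at the floor. Among enterocyte members at 8.0 in both arrays, as all T cell members were, it was 7 of 13. Without a floor, 15 of 42 enterocyte genes lay above the highest T cell gene, Slc7a11 (0.66). The ranges still overlapped, since 12 of the 17 T cell members lay at or above the lowest enterocyte member. The marking rests on general knowledge and not on a measurement in these samples. The lists were chosen with earlier results of these data known.

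Signal of the labelled cell type and of other cell types was read from marker genes. Of 9 general T cell markers with a probe set, 9 lay above 8.0 in both arrays, between 11.32 and 13.66 in the wildtype and between 11.17 and 13.57 in the impaired sample, with a median difference of -0.02. Il10 itself was at 12.94 and 12.92. All 14 enterocyte markers also lay above 8.0 in both arrays, from Lct at 8.19 to Apoa4 at 11.80 in the wildtype sample. They were brighter in the impaired sample in 14 of 14, with a median difference of 0.93, and their summed linear signal was 1.80 times as high. Goblet and Paneth cell markers were brighter in 8 of 8 (median 0.88, summed signal 1.97 times as high) and neutrophil markers in 10 of 10 (median 1.80, summed signal 3.41 times as high), although 0 of the 10 neutrophil markers reached 8.0 in the wildtype sample and 6 did in the impaired one. Markers of B cells (6 of 6, median 0.42, summed signal 1.52 times as high), macrophages (7 of 7, median 0.22, 1.35 times) and stromal cells (7 of 7, median 0.17, 1.23 times) were brighter too, and 1 marker of each of these 3 lists reached 8.0 in the wildtype sample. For macrophages this was Cd68, which differed by 0.09. Lyz2 (1.78) differed most among macrophage markers and Dcn (1.18) among stromal markers. Without a floor, 51.5% of all 19937 genes lay above 0. Markers of pancreatic acinar cells were dimmer in 7 of 7 (median -1.44). Any part that such cells played in the carrier differences was not tested. Il10ra, the receptor chain named by the labels, was at 9.92 (wildtype) and 12.30 (impaired), and whether its probe set detects the transgene is not known.

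**Figure D3:**
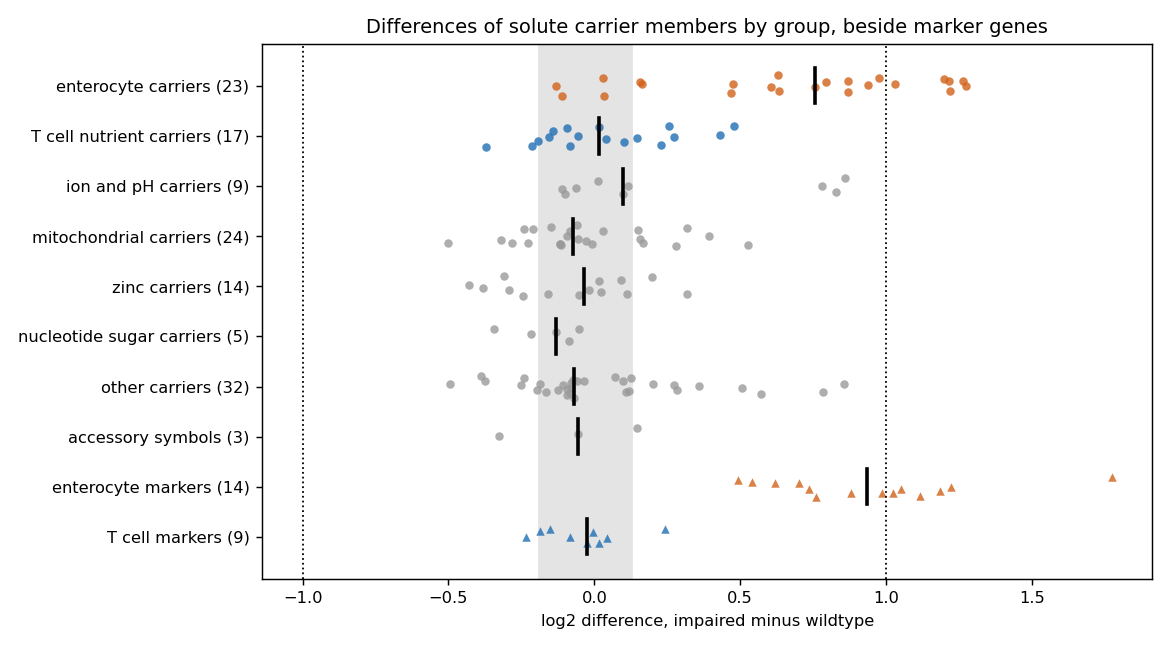
Log2 difference (impaired minus wildtype) of the 127 solute carrier members by group, with enterocyte and T cell marker genes as triangles; each point is 1 gene, black bars are medians, the grey band is the middle 50% of all 8132 genes at the floor and dotted lines mark 2-fold. Medians are 0.76 for the enterocyte carriers, 0.93 for the enterocyte markers, 0.02 for the T cell carriers and -0.02 for the T cell markers. Of the 23 enterocyte carriers, 10 reached 8.0 in the impaired array alone and had to be brighter there. The 13 at 8.0 in both arrays, as all 14 enterocyte markers were, had a median of 0.605.

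Outside the enterocyte list, 104 members had a median difference of -0.06, 0 were 2-fold brighter and 5 were at least 1.5-fold brighter, a size that 5.71% of all genes at the floor reached. These 5 were Slc4a4, a sodium-bicarbonate cotransporter (0.86), Slc44a4 (0.85), Slc12a8 (0.83), Slc44a1, a choline carrier (0.79), and Slc12a2, the sodium-potassium-chloride cotransporter NKCC1 (0.78). Slc4a4 was at 7.26 (wildtype) and 8.12 (impaired), Slc44a4 at 7.69 and 8.54, and Slc12a8 at 7.66 and 8.49, so that these 3 reached the floor in the impaired array alone. Slc12a2 was at 8.39 and 9.17. Slc44a1 was at 8.06 and 8.84, and its second probe set, at 6.99 and 8.31, differed by 1.32. Slc4a4, Slc12a2 and Slc44a4 are known from gut epithelium, although the enterocyte list did not hold them.

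Mitochondrial carriers of the SLC25 family, which pass metabolites and nucleotides through the inner membrane, were close to equal. Of 24 members 8 lay above 0 and 16 below, 0 reached 1.5-fold either way, and the median was -0.07. Few genes at the floor did so at all. Among all 8132, 5.71% were at least 1.5-fold brighter, 1.38% at least 1.5-fold dimmer, and 43.9% lay above 0. The ADP-ATP exchangers Slc25a5 and Slc25a4 were at 13.81 and 13.97, and at 10.06 and 9.81 (differences 0.16 and -0.24). The 3 probe sets of Slc25a5 differed by -0.14, 0.01 and 0.16 and so did not share a sign. Slc25a10, the dicarboxylate carrier, was highest at 0.53 (8.49 and 9.02), and Slc25a53 was lowest at -0.50 (9.37 and 8.87), also the lowest of all 127 members. Slc25a39, a glutathione carrier, differed by 0.39, and Slc25a20, the carnitine carrier of fatty acid oxidation, by -0.32.

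The members of the 2 zinc carrier families had different medians. The SLC30 family is known mainly for moving zinc out of the cytosol, although not every gene of it does so. Its 5 members (Slc30a4, Slc30a5, Slc30a6, Slc30a7 and Slc30a9) were all dimmer in the impaired sample. Their differences ran from -0.38 to -0.05, with a median of -0.24. Of all 8132 genes at the floor, 4546 lay below 0 as well, with a median of -0.04. The SLC30 genes below the floor did not share this direction. Slc30a2 (0.59), Slc30a10 (0.40) and Slc30a3 (0.39) lay above 0, Slc30a1 (0.004) near it and Slc30a8 (-0.10) below it. Slc30a9 was at 9.79 (wildtype) and 9.41 (impaired), and Slc30a5, which pairs with Slc30a6 in the secretory pathway, at 9.90 and 9.60. The SLC39 family moves zinc into the cytosol, and its 9 members outside the enterocyte list had a median of 0.02, from Slc39a10 at -0.43 (9.59 and 9.16) to Slc39a1 at 0.32 (9.03 and 9.35). The second probe set of Slc39a1 differed by 0.04. None of these 14 members at the floor reached 1.5-fold either way. Of all genes at the floor, 1.38% were dimmer and 5.71% brighter by that size.

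The nucleotide sugar family SLC35 supplies the Golgi with building blocks of glycans. The symbol pattern takes only its genes with the letter a after the number, so the rest of the family was not examined. The 5 members taken lay below 0, as did 4546 of all 8132 genes at the floor, and had a median of -0.13. Slc35a1, the carrier of CMP-sialic acid, was at 8.23 (wildtype) and 7.89 (impaired) (difference -0.345). Slc35a5 differed by -0.22 and Slc35a3 by -0.13. Among the 32 remaining carriers 13 lay above 0 and 19 below, with a median of -0.07. Slc37a3 was lowest, at 9.85 and 9.36, followed by the amino acid carrier Slc36a4 (-0.39) and the acetyl-CoA carrier Slc33a1 (-0.37). Slc37a1 differed by 0.57, and the creatine carrier Slc6a8 by 0.51 (8.72 and 9.22).

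The symbol pattern also took in 3 genes that do not encode carriers. Slc9a3r1, a scaffold that binds NHE3, was at 11.73 (wildtype) and 11.87 (impaired), Slc4a1ap at 8.90 and 8.57, and Slc7a6os at 8.88 and 8.83. Of the 4 listed carriers of myeloid cells, 3 had a probe set and 0 reached the floor: Slc15a3 differed by 0.01, Slc37a2 by 0.33 and Slc2a6 by 0.47. Just above the floor were Slc26a3 at 8.02, Slc16a10 at 8.03 and Slc39a8 at 8.03, and just below it were Slc22a17 at 7.98, Slc25a42 at 7.96 and Slc2a5 at 7.95, each by its higher array. Some genes below the floor differed as much as the members did. Slc1a1, the glutamate carrier EAAT3 of the brush border, was at 6.75 and 7.94 (difference 1.19), and Slc27a2, a fatty acid carrier, at 6.63 and 7.79 (difference 1.16).

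Promoter letters, which the rule did not use, were compared between the lists. HNF1 and HNF4 are transcription factors of gut epithelium, and the windows from 250 bases before to 50 bases after each RefSeq start site (GRCm38.p6) were searched on both strands for GTTAAT, 1 arm of the HNF1 palindrome, and for the HNF4 site CAAAGTCCA. At least 1 window was at hand for 18 of the 23 enterocyte genes and 11 of the 17 T cell genes. GTTAAT was found in 8 of 24 enterocyte windows (33.3%), in 0 of 22 T cell windows and in 7.10% of all 32851 windows. The 8 enterocyte genes with a match included Slc26a3, Slc6a20a, Slc7a7 and Slc3a1, but also Slc28a2 and Slc36a1, the 2 members below 0. In Slc3a1 the match began after the start site and lay on the other strand, where it reads ATTAAC. CAAAGTCCA was found in 1 enterocyte window, that of Slc3a1, in 0 T cell windows and in 0.475% of all windows. The E-box CACGTG, to which MYC binds, was in 3 of 24 enterocyte windows (12.5%), 3 of 22 T cell windows (13.6%) and 7.15% of all windows. The CDX letters TTTATGNC were in 0 windows of either list and in 2.92% of all, and the amino acid response letters TGATGNAA were in 2 enterocyte windows, both of Slc7a7, in 0 T cell windows and in 3.97% of all. No motif contains another. A match describes the letters and not a bound factor, and windows of 1 gene can overlap.

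The 250 bases before the start site are shown for 4 enterocyte carriers with matched letters, picked with their differences (0.79 to 1.22) known. GTTAAT also began before the start site in Slc39a5 (0.48), Slc16a10 (0.47), Slc28a2 (-0.11) and Slc36a1 (-0.13), which are not shown. The bases run 5′ to 3′ on the gene's strand, and capitals mark GTTAAT, or CAAAGTCCA in Slc3a1.
Slc26a3 (chr12:31437969-31438218, plus strand): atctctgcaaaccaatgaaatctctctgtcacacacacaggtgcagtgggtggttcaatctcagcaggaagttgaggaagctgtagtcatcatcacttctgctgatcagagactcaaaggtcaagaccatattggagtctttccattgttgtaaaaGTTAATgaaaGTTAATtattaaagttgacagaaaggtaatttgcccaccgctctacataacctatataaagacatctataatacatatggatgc
Slc6a20a (chr9:123678833-123679082, minus strand): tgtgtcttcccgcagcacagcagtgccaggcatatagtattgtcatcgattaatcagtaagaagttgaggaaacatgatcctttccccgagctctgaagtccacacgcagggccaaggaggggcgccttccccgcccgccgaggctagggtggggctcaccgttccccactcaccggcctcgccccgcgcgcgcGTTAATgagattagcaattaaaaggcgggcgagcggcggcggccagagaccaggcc
Slc7a7 (chr14:54409473-54409722, minus strand): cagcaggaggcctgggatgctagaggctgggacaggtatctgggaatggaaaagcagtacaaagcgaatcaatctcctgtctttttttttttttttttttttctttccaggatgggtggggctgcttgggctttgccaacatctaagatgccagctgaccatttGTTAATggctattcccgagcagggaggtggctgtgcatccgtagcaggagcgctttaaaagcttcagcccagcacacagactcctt
Slc3a1 (chr17:85028097-85028346, plus strand): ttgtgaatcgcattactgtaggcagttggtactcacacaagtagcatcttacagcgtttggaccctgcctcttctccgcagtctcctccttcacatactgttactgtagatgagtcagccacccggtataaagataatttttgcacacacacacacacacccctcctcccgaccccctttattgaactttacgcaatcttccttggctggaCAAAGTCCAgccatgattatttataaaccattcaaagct
In Slc26a3, GTTAAT begins 94 and 84 bases before the start site. In Slc6a20a it begins 56 and in Slc7a7 86 bases before the start site, and in Slc3a1 the HNF4 letters begin 39 bases before it. The windows of Slc5a1, Slc2a2 and Slc7a8, which differed by as much, did not hold GTTAAT.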

How the data were processed

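RNA of 2 samples, 1 per genotype, was measured on Affymetrix arrays. Per the submitters' processing notes, the authors used affy and RMA, and the deposited values are on a log2 scale, as their range (3.84 to 14.7, medians 6.89 and 6.92) shows. Their versions and the genome build are not given in those sources. RMA keeps part of the background in dim probe sets, which compresses their differences, and no detection calls were at hand. Precision is limited by having 1 array per genotype.

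Of 34760 probe sets, 21640 had 1 gene symbol in GEO's platform annotation, 1321 had several and 11799 were not listed; only the first were used. All 127 members matched RefSeq by Entrez identifier. Differences were taken from the deposited values, with size rules of 2-fold and 1.5-fold and no test. Named genes were the list members, the largest and smallest differences overall and per family, and genes next to the floor. Others, such as Slc1a1, Slc27a2, Slc25a4 and Slc6a8, were chosen after their values were seen. The members, lists, motifs and printed promoters were chosen with earlier results of these data known. The counting was tested on simulated data, in which 20 of 20 carriers planted at 4-fold were found. This checked the code and not the counts near 2-fold, since the largest difference of a member was 1.27. Alternatives concerned centring, a linear offset, probe sets, the floor, the size rule and the lists. Python 3.11.15, pandas 2.3.3, numpy 2.4.6 and statsmodels 0.14.6 were used.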

Additional observations from a re-analysis of the deposited data

How the results depend on the processing

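The enterocyte median of 0.76 and its distance of 0.74 from the T cell median depended most on the floor. They were 0.63 and 0.61 with a floor of 7.0, 0.63 and 0.61 with a floor of 9.0, 0.60 and 0.59 with 8.0 required in both arrays, and 0.56 and 0.49 with no floor, an alternative chosen after seeing the data. The 6 members at least 2-fold brighter became 2 with a floor of 9.0, 2 with 8.0 in both arrays and 20 with the 1.5-fold rule. These follow from which genes the floor and the size rule take in. Loess centring, median centring, the offset of 32, the mean of all probe sets and leaving out accessory genes gave 5 to 7 such members. The T cell median lay between 0.02 and 0.08 under 10 alternatives, and the count of members 2-fold dimmer was 0 under all 10. The median over all members lay between -0.06 and 0.10, so its sign was not stable. A shift counted as such from 0.1 on the log2 scale, or 1.5 times for counts. No paired analysis was possible because there was 1 sample per genotype, and for the same reason no sample could be left out.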
